A study of Mus musculus with 6 samples.

Results

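C-type lectin receptors are membrane proteins with a folded domain that in many of them binds sugars of microbes or of the body's own cells. The group described here is a list of 10 mouse genes, Clec4d, Clec4e, Clec4n, Clec4a2, Clec5a, Clec7a, Clec12a, Clec2d, Clec2i and Cd209a, of which 9 were measured out of 18193 genes in all. The members were taken by gene symbol from the array platform's annotation, and Clec12a, which encodes an inhibitory receptor of myeloid cells, was not measured here. A gene was read by its brightest probe set, an array feature that sums several short probes, and other probe sets are given beside it.

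RNA was measured in bone marrow of adult mice hemizygous for the transgene Tg(Ren1-GFP)2Kwg, in which renin gene sequence drives green fluorescent protein (GFP). The sorted samples (n = 3) hold GFP-positive marrow cells, gated by scatter against erythrocytes and debris, then for single cells, then for GFP with a lower limit that admitted 0.1% of cells from mice without the transgene. The presort samples (n = 3) are unsorted marrow of the same transgenic mice, in which erythrocytes were not gated out. In each of 3 runs, femoral marrow was pooled from 4 to 5 male and female animals aged 3 to 6 months, with a portion kept unsorted, so that each sorted sample has a presort partner from its own pool. RNA was hybridised to Affymetrix 3′ expression arrays, and all levels are given as log2 of the deposited RMA intensity (robust multi-array average).

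Myeloid lectin receptors work as sensors on neutrophils, monocytes, macrophages and dendritic cells. Several of them have no signalling tail and pass the signal through adaptor proteins with an immunoreceptor tyrosine-based activation motif (ITAM) to the kinase Syk and then to a complex around Card9, which activates NF-kappaB and cytokine genes. Others carry an inhibitory motif (ITIM) that recruits phosphatases, and the Clec2 proteins are ligands that lectin-like receptors of natural killer (NK) cells recognise.

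RNA of 7 of the 9 measured receptors was lower in the sorted cells, and none was higher (limma, Benjamini-Hochberg adjusted p under 0.05 over all genes). The 7 that fell were Clec4d, Clec4e, Clec4n, Clec4a2, Clec5a, Clec7a and Cd209a, with presort levels 3.33 to 15.6 times the sorted levels and adjusted p from 0.000109 to 0.00251. Of all genes tested 18.1% were lower and 14.5% higher by the same rule. The sorted and presort samples did not overlap for any of the 7, as for 23.6% of all genes. It follows from this that each of the 7 was lower in all 3 pools. A fall of at least 3 on the log2 scale was found for 5 members, Clec4d, Clec4e, Clec4a2, Clec5a and Clec7a, and for 1.11% of all genes. The median difference of the 9 members was -3.07 on the log2 scale, against -0.0021 over all genes. At the level of probe sets 10 of the members' 13 were lower, against 15.3% of all probe sets with 1 gene symbol. Clec2d and Clec2i did not pass the test.

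**Figure D1:**
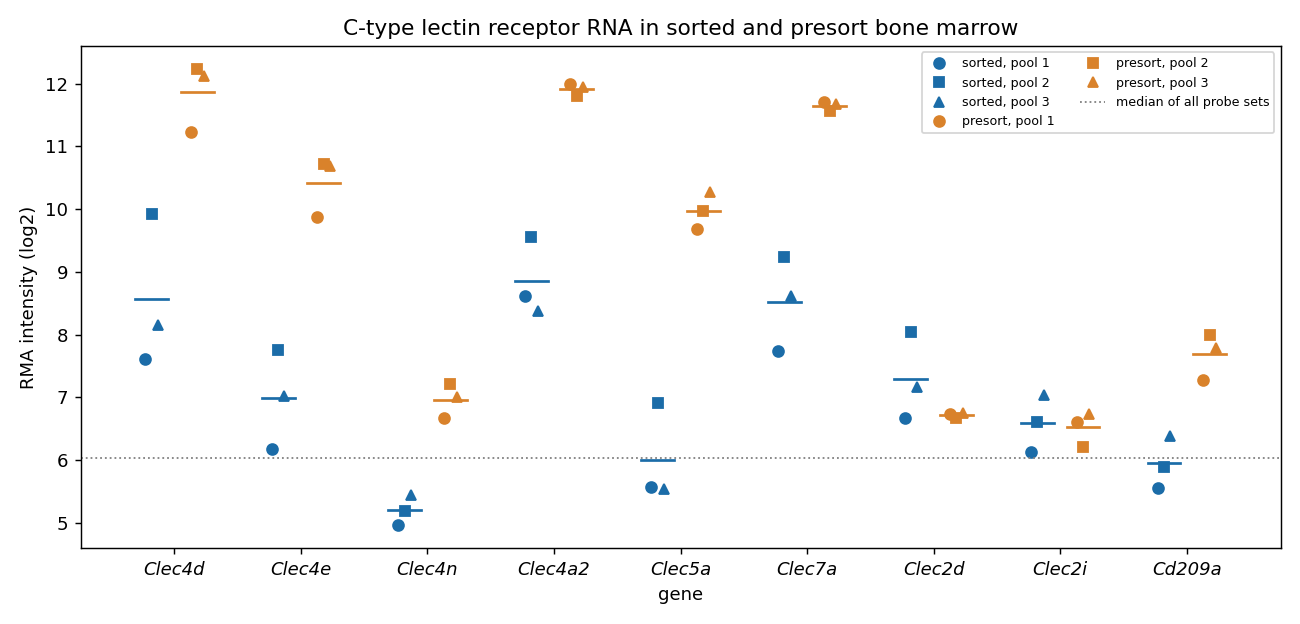
Log2 RMA intensity of the 9 measured receptors in each sample, with sorted samples in blue to the left of presort samples in orange, the marker shape giving the pool, a bar at each group mean and a dotted line at the median of all probe sets (6.04). The groups are apart for 7 genes and overlap for Clec2d and Clec2i; levels of different genes are not comparable, since each probe set has its own brightness.

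The promoters of the 6 members that fell and have an entry are shown with the core motif of PU.1, a transcription factor of myeloid and B cells, and that of Clec2d, which did not fall, is set beside them. They are RefSeq sequences on GRCm38.p6, each 300 bases long, from 250 bases before to 50 bases after the annotated start, 5′ to 3′ on the gene's strand, and 9 of the 10 members had an entry. Capitals mark GAGGAA or its reverse complement TTCCTC, searched on both strands.
Clec4d, chr6:123261857-123262156, plus strand: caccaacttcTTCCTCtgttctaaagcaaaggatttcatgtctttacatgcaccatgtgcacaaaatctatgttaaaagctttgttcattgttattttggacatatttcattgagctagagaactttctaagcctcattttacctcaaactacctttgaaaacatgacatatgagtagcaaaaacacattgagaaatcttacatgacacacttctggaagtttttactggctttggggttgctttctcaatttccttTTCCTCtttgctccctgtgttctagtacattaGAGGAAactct
Clec4e, chr6:123289822-123290121, minus strand: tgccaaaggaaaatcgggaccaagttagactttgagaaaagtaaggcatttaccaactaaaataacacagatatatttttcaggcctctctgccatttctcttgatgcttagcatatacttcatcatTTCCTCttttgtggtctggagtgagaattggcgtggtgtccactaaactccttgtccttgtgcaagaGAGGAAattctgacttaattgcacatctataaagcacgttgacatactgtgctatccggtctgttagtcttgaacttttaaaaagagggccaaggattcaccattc
Clec5a, chr6:40585756-40586055, minus strand: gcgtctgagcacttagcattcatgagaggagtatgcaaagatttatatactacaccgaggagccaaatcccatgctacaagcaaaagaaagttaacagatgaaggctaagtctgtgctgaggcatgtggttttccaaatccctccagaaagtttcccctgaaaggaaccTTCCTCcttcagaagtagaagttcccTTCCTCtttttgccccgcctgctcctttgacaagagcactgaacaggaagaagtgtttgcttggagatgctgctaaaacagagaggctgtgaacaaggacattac
Clec7a, chr6:129472730-129473029, minus strand: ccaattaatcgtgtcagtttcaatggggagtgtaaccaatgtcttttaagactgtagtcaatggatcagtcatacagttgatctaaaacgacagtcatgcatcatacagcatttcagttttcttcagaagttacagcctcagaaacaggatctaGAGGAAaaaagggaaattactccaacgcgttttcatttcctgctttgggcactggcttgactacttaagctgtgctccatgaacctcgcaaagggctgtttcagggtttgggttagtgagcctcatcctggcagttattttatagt
Clec4a2, chr6:123122440-123122739, plus strand: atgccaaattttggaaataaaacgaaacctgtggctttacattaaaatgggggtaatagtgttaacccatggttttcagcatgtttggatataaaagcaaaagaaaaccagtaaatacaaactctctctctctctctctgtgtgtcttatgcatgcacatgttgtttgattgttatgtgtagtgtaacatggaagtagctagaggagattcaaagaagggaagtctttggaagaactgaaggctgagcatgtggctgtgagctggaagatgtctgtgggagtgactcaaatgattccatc
Cd209a, chr8:3748935-3749234, minus strand: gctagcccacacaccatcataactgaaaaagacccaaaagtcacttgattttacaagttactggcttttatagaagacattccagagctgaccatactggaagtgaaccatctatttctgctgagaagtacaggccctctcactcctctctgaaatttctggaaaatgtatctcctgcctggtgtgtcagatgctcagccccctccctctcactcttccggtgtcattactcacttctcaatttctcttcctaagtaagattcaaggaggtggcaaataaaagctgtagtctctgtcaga
Clec2d, chr6:129180365-129180664, plus strand: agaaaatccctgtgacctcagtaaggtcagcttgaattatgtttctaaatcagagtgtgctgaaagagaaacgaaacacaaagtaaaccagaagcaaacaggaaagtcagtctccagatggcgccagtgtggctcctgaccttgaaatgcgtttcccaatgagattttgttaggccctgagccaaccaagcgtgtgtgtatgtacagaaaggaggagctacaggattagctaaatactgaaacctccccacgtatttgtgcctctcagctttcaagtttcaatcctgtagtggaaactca

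The GAGGAA core was found in 4 of the 6 promoters of fallen members, those of Clec4d, Clec4e, Clec5a and Clec7a, and in 0 of the 2 promoters of Clec2d and Clec2i. Among all 32851 promoters given, 28.3% hold it. A C/EBP motif, TTGCNNAA, is in the Clec4e promoter and in that of Clec2i, against 10.8% of all promoters. The AP-1 motif TGANTCA (7.81% of all promoters) is in that of Clec4a2. The interferon response element, 2 GAAA blocks with any 2 bases between them, is in that of Clec4d, where it overlaps a PU.1 core, and in that of Clec2d, against 3.44% of all promoters. All 4 motifs were searched on both strands, and none of them was found in the Cd209a window. The genes named here are measured members. The promoter of Clec12a, which was not measured, also holds the PU.1 core, the C/EBP motif and the AP-1 motif.

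Clec4d and Clec4e are neighbours on chromosome 6 and encode receptors that are found in a joint complex: Clec4e encodes Mincle, which recognises the cord factor of mycobacteria, and Clec4d encodes MCL. Clec4d had log2 intensities of 7.61, 9.92 and 8.15 in sorted replicates 1, 2 and 3, against 11.23, 12.24 and 12.13 in presort replicates 1, 2 and 3. Clec4e had 6.17, 7.76 and 7.03 in the sorted replicates, against 9.88, 10.71 and 10.68 in the presort replicates. For both genes sorted replicate 2 was the highest of the sorted samples and presort replicate 1 the lowest of the presort samples. Clec4d fell by 3.30 ± 0.56 on the log2 scale (SE; presort level 9.86 times the sorted; limma adjusted p = 0.00251). Clec4e fell by 3.44 ± 0.40 (10.8 times; adjusted p = 0.000345). The other Clec4e probe set, which is dimmer, stood at -2.33 ± 0.21 (limma adjusted p = 0.000184 over probe sets). The only single-gene probe set of Clec4d ends in _s_at, a mark of probe sets that can match several transcripts.

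Clec4a2 encodes DCIR, an inhibitory receptor with an ITIM, and lies in the same stretch of chromosome 6. Its log2 intensities were 8.61, 9.56 and 8.37 in sorted replicates 1 to 3, against 11.99, 11.80 and 11.95 in presort replicates 1 to 3. The presort samples lay close together, with an SD of 0.099, while the sorted samples spread over an SD of 0.63. Clec4a2 fell by 3.07 ± 0.28 (SE, log2; presort level 8.39 times the sorted; limma adjusted p = 0.000109). Its dimmer probe set stood at -2.29 ± 0.15. A probe set annotated to both Clec4b1 and Clec4a2 averaged 8.11 in sorted and 11.12 in presort samples, a difference of -3.01.

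Clec4n encodes Dectin-2, a receptor for fungal mannans that signals through the adaptor Fcer1g. Its log2 intensities were 4.96, 5.19 and 5.45 in sorted replicates 1 to 3, against 6.67, 7.21 and 7.01 in presort replicates 1 to 3. All sorted values were below the median of all probe sets (6.04), and all presort values above it. Clec4n fell by 1.76 ± 0.18 (SE, log2; 3.39 times; limma adjusted p = 0.000185). This value is from an _s_at probe set, and the other Clec4n probe set, dim in both groups at 4.13 ± 0.27 in sorted and 4.72 ± 0.22 in presort samples (SD, n = 3 each), fell by 0.59 (limma adjusted p = 0.0397 over probe sets).

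Clec7a encodes Dectin-1, the receptor for fungal beta-glucan, which carries a single-tyrosine activation motif in its own tail. Its log2 intensities were 7.74, 9.23 and 8.61 in sorted replicates 1 to 3, against 11.71, 11.56 and 11.68 in presort replicates 1 to 3. The presort samples were within an SD of 0.081, and the highest sorted sample, replicate 2, was still below all of them. Clec7a fell by 3.12 ± 0.33 (SE, log2; 8.72 times; limma adjusted p = 0.000217).

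Clec5a encodes a myeloid receptor that signals through the adaptor Tyrobp (DAP12), and it had the largest fall of the 9 members. The log2 intensities of Clec5a were 5.57, 6.91 and 5.53 in sorted replicates 1 to 3, against 9.68, 9.97 and 10.27 in presort replicates 1 to 3. Sorted replicates 1 and 3 lay below the median of all probe sets and sorted replicate 2 above it, and all were below the presort samples. Clec5a fell by 3.97 ± 0.36 (SE, log2; 15.6 times; limma adjusted p = 0.000109). It averaged 6.00 ± 0.79 in sorted and 9.97 ± 0.30 in presort samples (SD, n = 3 each).

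Cd209a encodes a mouse relative of human DC-SIGN, a lectin of dendritic cells. The log2 intensities of Cd209a were 5.56, 5.89 and 6.39 in sorted replicates 1 to 3, against 7.28, 7.99 and 7.78 in presort replicates 1 to 3. Cd209a fell by 1.74 ± 0.25 (SE, log2; 3.33 times; limma adjusted p = 0.00111). Of the other members of its family, Cd209b to Cd209g, 6 of 6 were measured and 0 passed the limma test in either direction. Cd209f, the brightest of them by mean, stood at -0.52 (adjusted p = 0.0873), and 2 of the 6 had an unadjusted p under 0.05. With the pool as a block 2 of the 6 were lower, Cd209f (adjusted p = 0.0240) and Cd209d (-0.56, adjusted p = 0.0315), the latter named after its value was seen. Both were also called lower without presort replicate 1, without pool 1 and with array weights (limma adjusted p from 0.00615 to 0.0311). Cd209d was called without the dimmest 33.3% of genes (0.0466) and with an intensity trend and robust prior (0.0444) too. Cd209b was called higher with median centring (0.40, limma adjusted p = 0.0195).

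Clec2d, also called Clr-b, is a ligand that inhibitory Nkrp1 receptors of NK cells read on healthy cells. Its log2 intensities were 6.67, 8.04 and 7.16 in sorted replicates 1 to 3, against 6.74, 6.67 and 6.75 in presort replicates 1 to 3. The sorted samples spanned a wide range, and only sorted replicate 1 lay within the range of the presort samples. Clec2d stood at 0.57 ± 0.30 (SE, log2; limma adjusted p = 0.212), with -0.07 in pool 1, 1.38 in pool 2 and 0.41 in pool 3. Leaving out sorted replicate 2 brought it to 0.20 (adjusted p = 0.457) and leaving out pool 2 to 0.17 (adjusted p = 0.666). Without sorted replicate 1 it was called higher, at 0.88 ± 0.24 (adjusted p = 0.0274), and in a fit that took the gap between 3′ and 5′ signal of beta-actin, a sign of RNA quality, as a covariate it was called at 1.13 ± 0.31 (adjusted p = 0.0351). That gap was widest in sorted replicate 1.

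Clec2i, or Clr-g, is the ligand read by the receptor that Klrb1f encodes. Its log2 intensities were 6.14, 6.60 and 7.04 in sorted replicates 1 to 3, against 6.61, 6.21 and 6.74 in presort replicates 1 to 3, so that the groups overlapped. Clec2i stood at 0.07 ± 0.24 (SE, log2; limma adjusted p = 0.871), and its dimmer probe set at 0.05 ± 0.22. Its sign has no settled direction, since it turned below 0 in 4 of the 9 fits that left out an array or a pool.

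**Figure D2:**
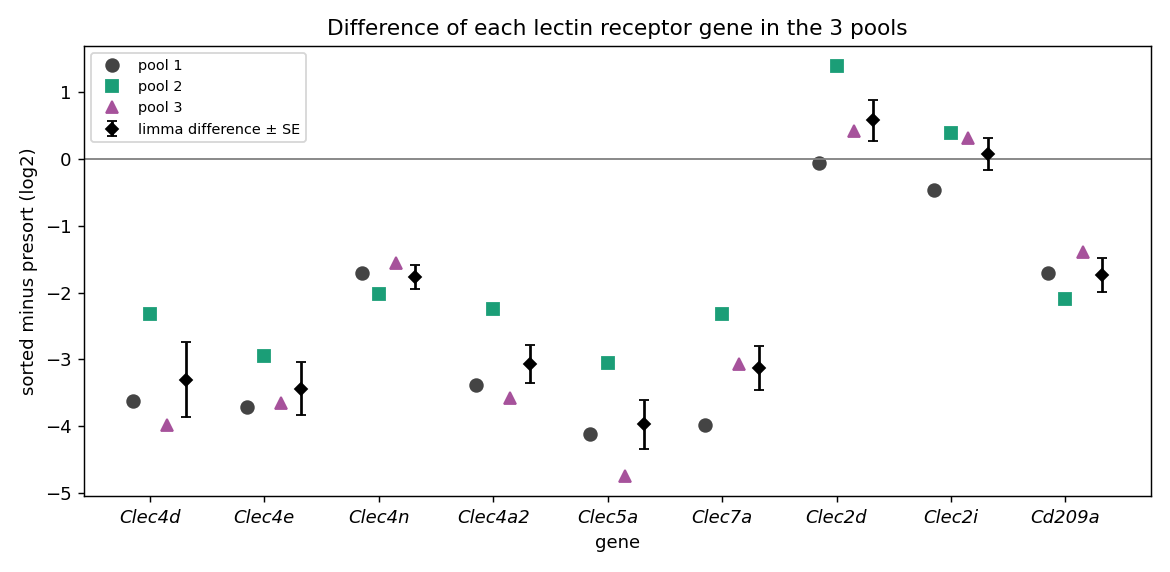
Log2 difference of sorted minus presort RNA of each measured receptor within pools 1, 2 and 3, with the limma difference and its SE as a black diamond; points below 0 are lower in sorted cells. For Clec4d, Clec4e, Clec4a2, Clec5a and Clec7a the fall was smallest in pool 2, and for Clec4n and Cd209a it was smallest in pool 3.

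The fallen receptors did not vary alike between sorted samples. Clec4d, Clec4e, Clec4a2, Clec5a and Clec7a were highest in sorted replicate 2, and their pool 2 differences ran from -2.25 for Clec4a2 to -3.06 for Clec5a. Clec4n and Cd209a were highest in sorted replicate 3, and their smallest differences were -1.56 and -1.39, in pool 3. In 8 of the 9 members the sorted samples had a larger SD than the presort samples. Over all genes too the sorted samples were less alike. Their correlations were 0.986 to 0.992, against 0.992 to 0.996 among presort samples. The median over the 9 members was -3.38 in pool 1, -2.25 in pool 2 and -3.07 in pool 3.

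Most measured markers of neutrophils, monocytes and macrophages fell too, but falls were not confined to these cells. Erythroid markers fell in 5 of 6 measured, basophil and mast cell markers in 6 of 6 and megakaryocyte markers in 3 of 5. In bulk RNA fewer cells of a type and less RNA per cell cannot be told apart. Of the neutrophil markers 11 of 11 measured fell, and their summed intensity was 69521, 106712 and 57431 in sorted replicates 1 to 3, against 203592, 201530 and 210654 in presort replicates 1 to 3. The sum was highest among sorted samples in replicate 2, where the 5 members named above were highest too. That replicate also had the highest sorted sums of megakaryocyte markers (593, 2334 and 643 in sorted replicates 1 to 3) and of stroma and endothelium markers (574, 862 and 738). Of the monocyte markers 6 of 7 fell (6272 to 9688 in sorted against 28561 to 32046 in presort samples), with the highest sorted sum in replicate 3, and of the macrophage markers 7 of 9 fell (872 to 2499.6 against 6083 to 10544), with the highest in replicate 2. No neutrophil or monocyte marker averaged below the median of all probe sets in either group. In the macrophage list Mertk and Marco did so in sorted and Marco in presort samples. Of the eosinophil markers 5 of 6 fell, with summed intensities of 790, 6076 and 2200.2 in sorted replicates 1 to 3, against 11338, 22492 and 22995 in presort replicates 1 to 3, the sorted sum being highest in replicate 2. The part of these cells in the falls of the receptors was not tested.

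The brightest neutrophil markers, Ngp and S100a8, stood at -0.69 and -0.81, near the top of the intensity scale (15.23), while of the brightest monocyte markers Csf1r, the receptor for macrophage colony-stimulating factor, stood at -2.79 and Ly86, which did not pass, at 0.35. No marker was at 0 on these arrays, whose lowest log2 intensity is 3.28. The brightest macrophage markers, the adhesion molecule gene Vcam1 and the receptor gene Adgre1, stood at -2.62 and -2.22. In the conventional dendritic cell list 3 of 6 measured markers fell and 1 rose. Flt3, a growth factor receptor gene, stood at -0.80, and Ccr7, a homing receptor gene that lymphocytes express too, rose by 2.87. The summed intensity of the list, 1788 to 2364 in sorted against 917 to 1058 in presort samples, was higher in the sorted samples through Ccr7: without that gene it was 367 to 472 in sorted against 691 to 806 in presort samples, lower in each sorted sample (a sum added after the data were seen). Zbtb46, Xcr1 and Batf3 averaged below the median of all probe sets in both groups. B cell markers were higher, 7 of 7 measured, with sums of 55801 to 62118 in sorted and 8118 to 16950 in presort samples, led in brightness by Cd79b at 2.57 and Ms4a1 at 2.27.

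**Figure D3:**
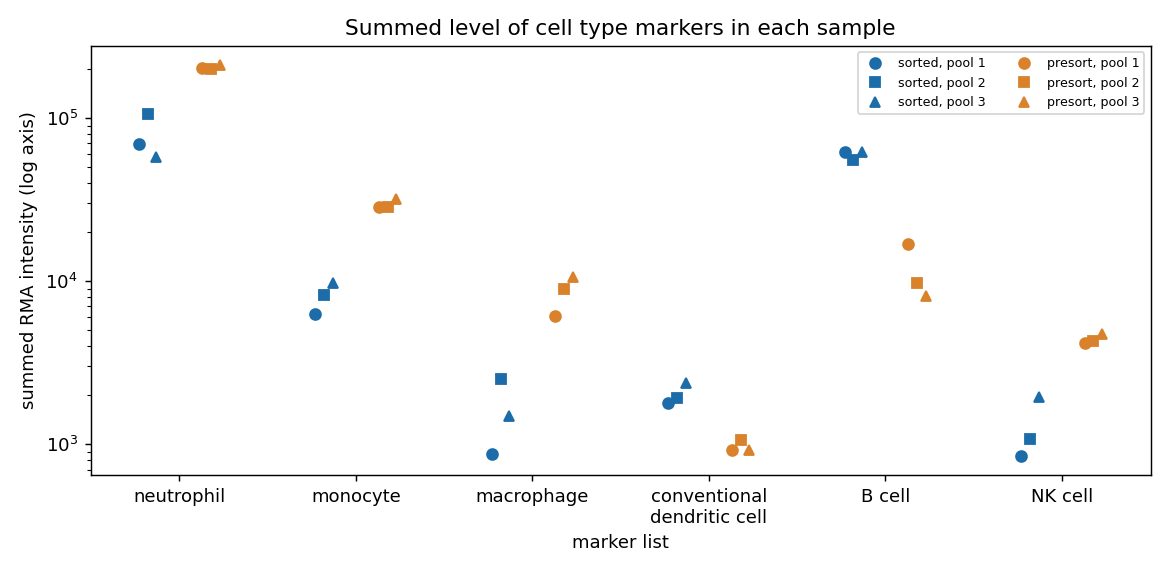
Summed RMA intensity (log axis) of the measured markers of 6 cell types in each sample, with sorted samples in blue to the left of presort samples in orange and the marker shape giving the pool. Neutrophil, monocyte, macrophage and NK cell sums are lower and B cell and conventional dendritic cell sums higher in every sorted sample than in every presort sample, the dendritic cell sum through Ccr7, without which it is lower in every sorted sample. In pool 3 the NK cell sum is lower through Nkg7, the other NK cell markers standing between -0.29 and 0.75 (log2) there.

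A measure of RNA quality, the gap between 3′ and 5′ signal, was wider in each sorted than in each presort sample. A wider gap is a sign of less intact RNA. The log2 signal at the 3′ end of the beta-actin transcript minus that at the 5′ end was 3.17, 1.54 and 1.43 in sorted replicates 1 to 3, against 1.11, 0.95 and 0.81 in presort replicates 1 to 3 (p = 0.1, two-sided exact permutation test, the smallest that 3 against 3 arrays allow). With that difference as a covariate all 7 falls were called, from -1.31 for Cd209a to -3.55 for Clec5a. Clec4d moved from -3.30 to -2.38 (limma adjusted p = 0.0305). Since the covariate is itself higher in each sorted sample, this fit cannot separate RNA quality from sorting.

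Of the members Cd209a lies on chromosome 8, Clec5a alone on chromosome 6, and the others in 2 clusters on chromosome 6. In the stretch from Clec4a1 to Clec4e the annotation has 9 protein-coding genes, of which 6 were measured, the 4 members Clec4a2, Clec4n, Clec4d and Clec4e among them. All 6 were lower in sorted cells, as were 18.1% of all genes. The 4 members are already counted among the fallen receptors, so that only 2 genes are added here. Clec4a3, a relative of Clec4a2, had log2 intensities of 6.01, 6.45 and 7.67 in sorted replicates 1 to 3, against 9.76, 10.22 and 10.07 in presort replicates 1 to 3. It fell by 3.31 ± 0.38 (SE, log2; limma adjusted p = 0.000347). Clec4b1 fell by 0.73 ± 0.16 (adjusted p = 0.00911) at intensities below the median of all probe sets in both groups, and its call was lost without pool 2 (adjusted p = 0.0961) and under the RNA quality covariate (-0.46, adjusted p = 0.0939).

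The stretch from Clec2i to Clec7a was mixed. It has 14 protein-coding genes, of which 11 were measured, and of the 8 measured genes that are no members 2 were lower, 1 was higher and 5 did not pass. Klrb1f, the receptor gene for the Clec2i ligand, and Clec1b, which encodes the platelet receptor CLEC-2, were lower, while Cd69, an activation antigen of lymphocytes, was higher. Clec2g, Clec2e, Clec2m, Clec12b and Clec1a stood between -0.13 and 0.20. Clec7a, at the end of the stretch, fell, and Clec2d lies next to Cd69.

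**Figure D4:**
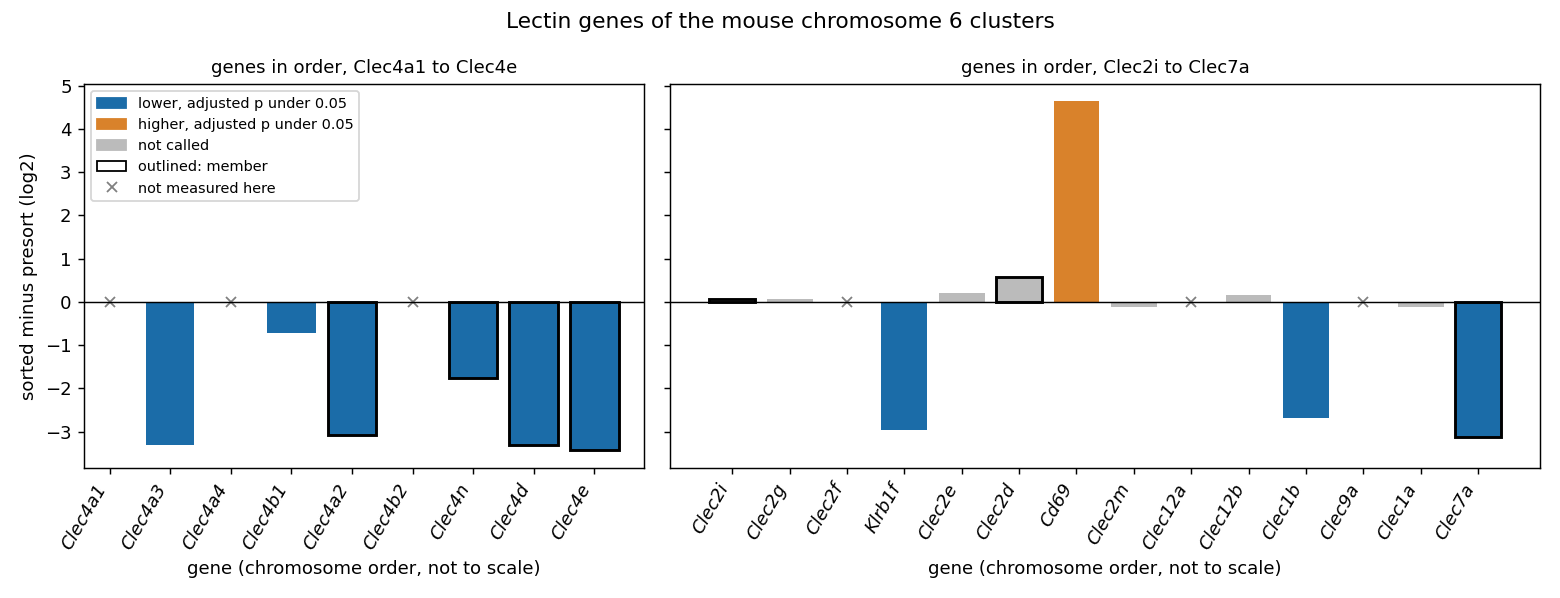
Log2 difference of sorted minus presort RNA along 2 stretches of mouse chromosome 6, genes in chromosome order and not to scale, with members outlined, called genes coloured, uncalled genes grey and a cross for genes not measured here. All 6 measured genes from Clec4a1 to Clec4e, 4 of them members, are lower, while the stretch from Clec2i to Clec7a holds lower, higher and uncalled genes.

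Cd69 had log2 intensities of 12.77, 12.48 and 12.25 in sorted replicates 1 to 3, against 8.43, 7.65 and 7.49 in presort replicates 1 to 3. The rise was 4.64 ± 0.25 (log2 scale with SE, or 25.0-fold; limma adjusted p = 1.94e-05), and the groups were far apart. Of the list of other Clec2 genes with Cd69, 5 of 7 genes were measured and Cd69 alone passed, while Clec2e, Clec2g, Clec2h and Clec2l stood between 0.00 and 0.20.

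Of 4 listed Nkrp1 receptors, on the opposite side of the Clec2 ligands, 3 were measured. Klrb1f and Klrb1a were lower, and Klrb1a and Klrb1b lay near the floor of the scale. Klrb1f had log2 intensities of 6.69, 6.08 and 6.16 in sorted replicates 1 to 3, against 9.44, 8.97 and 9.42 in presort replicates 1 to 3. It fell by 2.97 ± 0.20 (SE, log2; 7.84 times; limma adjusted p = 2.94e-05), while its ligand gene Clec2i did not pass at 0.07. Klrb1a fell by 0.71 ± 0.12 (adjusted p = 0.00216), below the median of all probe sets in both groups. Klrb1b, whose product binds Clec2d, stood at -0.12 and did not pass, and its sign turned with median centring, under the RNA quality covariate and when its probe sets were averaged. NK cell markers fell too, 5 of 8 measured, with summed intensities of 851 to 1946 in sorted and 4154 to 4758 in presort samples. Of their brightest members, Nkg7 stood at -2.99 and Gzma, which did not pass, at -1.29. In pool 3 Nkg7 stood at -3.23 and the other measured NK cell markers between -0.29 (Gzmb) and 0.75 (Prf1). The lower sum in that pool thus came through Nkg7, while Klrb1f stood at -3.27 there. The part of NK cells in the difference of Klrb1f was not tested.

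Of 50 further genes with a lectin-like domain 42 were measured, and 12 were lower and 5 higher in sorted cells. Of all genes 18.1% were lower and 14.5% higher. The median of the 42 was -0.10, against -0.0021 over all genes. The endocytic lectins had 5 of 12 lower and none higher, led by Mrc1, the macrophage mannose receptor, at -2.88, and Cd302 at -2.86. Ly75, which encodes the antigen uptake receptor DEC-205, stood at -2.03 and Clec10a, a galactose-type lectin, at -1.86, and the fifth, Mgl2, named here after its value was seen, is a close relative of Clec10a and stood at -1.79. The remaining 7, with Mrc2, Cd207, Clec4f, Clec4g, Pla2r1, Asgr1 and Asgr2, did not pass. Near Clec7a, Olr1, a receptor for oxidised lipoprotein, fell by 3.18 ± 0.22 (SE, log2) and Clec1b by 2.69 ± 0.65 (adjusted p = 0.0139). The Clec1b call was lost without any of sorted replicate 3, presort replicate 2, presort replicate 3 or pool 3, at adjusted p between 0.0513 and 0.142, and under the RNA quality covariate (-1.97, adjusted p = 0.140).

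Lectin-like proteins of B cells went the other way. Cd72, an inhibitory co-receptor of the B cell receptor, had log2 intensities of 13.05, 12.97 and 13.02 in sorted replicates 1 to 3, against 10.77, 10.26 and 9.96 in presort replicates 1 to 3, a rise of 2.69 ± 0.20 (SE; limma adjusted p = 3.94e-05). Fcer2a, the low-affinity receptor for immunoglobulin E (CD23), had 10.02, 9.69 and 10.64 in the sorted replicates, against 8.40, 8.09 and 8.04 in the presort replicates, a rise of 1.94 ± 0.24 (adjusted p = 0.000481). Of the other lectin domain proteins 2 of 8 rose and 1 fell: Cd93, a surface protein of immature B cells, by 1.34 ± 0.25, the thrombomodulin gene Thbd by 1.11 ± 0.29, and the scavenger receptor gene Colec12 stood at -1.15 ± 0.24. The Cd93 call was lost without pool 3 (adjusted p = 0.0577) and under the RNA quality covariate (0.97, adjusted p = 0.0528). The Thbd call was lost without any of sorted replicate 3, presort replicate 2, presort replicate 3 or pool 3, at adjusted p between 0.0604 and 0.161, and with that covariate (0.62, adjusted p = 0.222).

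**Figure D5:**
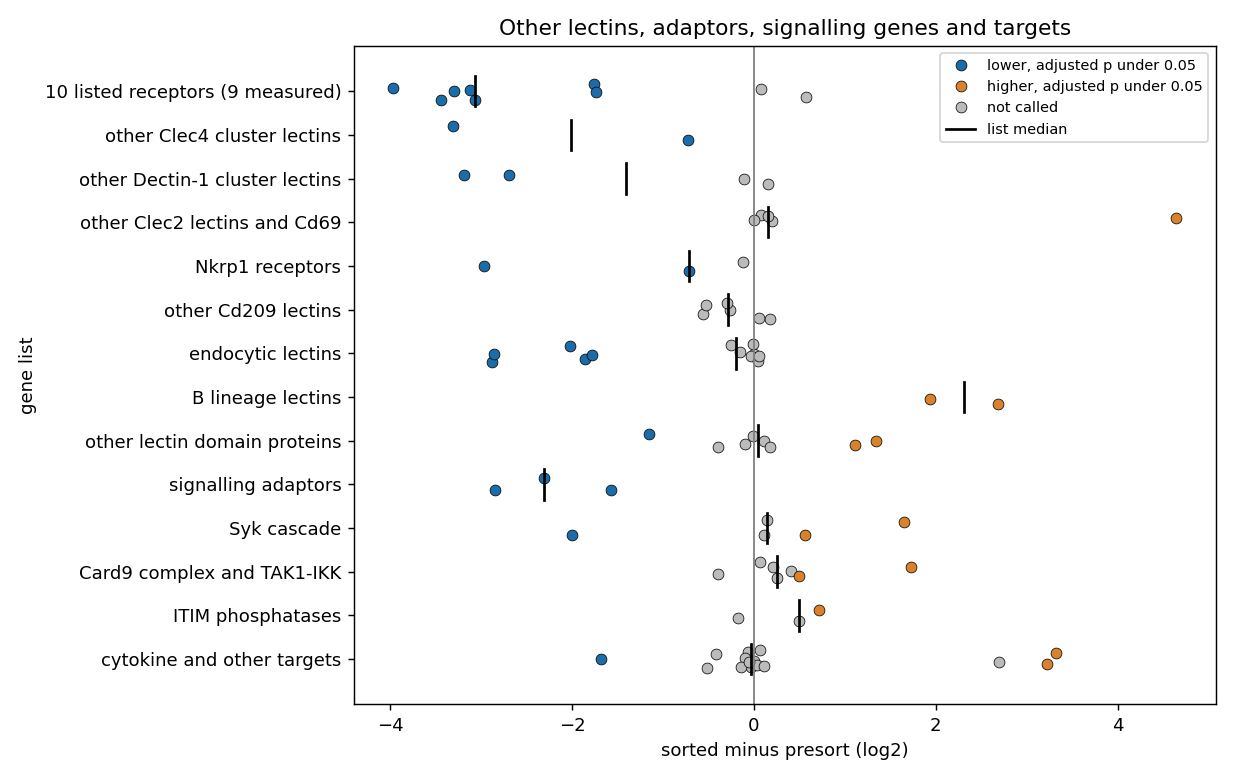
Log2 difference of sorted minus presort RNA of every measured gene in the receptor list and in the lists of other lectins, adaptors, signalling genes and targets, with lower genes in blue, higher genes in orange, uncalled genes in grey and a bar at each list median. The receptors have a median of -3.07 and the signalling adaptors of -2.30, while the lists of the Syk cascade, the Card9 complex and the targets have medians between -0.04 and 0.25.

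Of the signalling adaptors that the receptors use 3 of 3 measured fell, Fcer1g and Tyrobp, which carry an ITAM, and Hcst, which carries a motif for phosphatidylinositol 3-kinase and no ITAM. Fcer1g, the Fc receptor gamma chain that Clec4e and Clec4n use, had log2 intensities of 8.08, 8.96 and 8.32 in sorted replicates 1 to 3, against 11.33, 11.21 and 11.36 in presort replicates 1 to 3. It fell by 2.85 ± 0.21 (SE; 7.19 times; limma adjusted p = 4.37e-05). Tyrobp, the adaptor of Clec5a, had 10.90, 11.60 and 11.46 in the sorted replicates, against 13.61, 13.59 and 13.68 in the presort replicates. It fell by 2.30 ± 0.18 (4.93 times; adjusted p = 5.56e-05). Hcst (DAP10), which can join Tyrobp at Clec5a, had 6.75, 7.80 and 7.50 in the sorted replicates, against 8.71, 9.05 and 9.02 in the presort replicates. It fell by 1.58 ± 0.26 (adjusted p = 0.00205). Sorted replicate 2 was the highest sorted sample for all 3 adaptors, and no adaptor overlapped between the groups. Of all genes 18.1% were lower by the same test, and 23.6% were lower in sorted samples without overlap.

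Genes further down the pathway did not fall as a group. In the Syk cascade list 5 of 6 genes were measured, of which 2 rose and 1 fell. Syk, the kinase that the activation motifs recruit and that B cell receptors use as well, had log2 intensities of 13.68, 13.13 and 13.55 in sorted replicates 1 to 3, against 12.21, 11.59 and 11.62 in presort replicates 1 to 3. The rise was 1.65 ± 0.21 (log2 scale with SE, or 3.13-fold; limma adjusted p = 0.000609). Vav3, a guanine nucleotide exchange factor, fell by 2.00 ± 0.11, and its relative Vav1 rose by 0.56 ± 0.16 (adjusted p = 0.0280), a call lost in 7 fits that left out an array or a pool, at adjusted p between 0.0563 and 0.140, and under the RNA quality covariate (0.116). The remaining 2 measured genes did not pass.

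In the list of the Card9 complex and the TAK1 and IKK kinases 7 of 9 genes were measured, and 2 rose and none fell. Malt1, the protease of the complex, had log2 intensities of 10.67, 10.54 and 10.02 in sorted replicates 1 to 3, against 8.80, 8.34 and 8.91 in presort replicates 1 to 3, a rise of 1.72 ± 0.21 (SE; limma adjusted p = 0.000507). Tab2, the brightest member, rose by 0.49 ± 0.12 (adjusted p = 0.0154), a call lost in 5 fits without an array or a pool, at adjusted p between 0.0532 and 0.0904, and under the RNA quality covariate (0.116). With the pool as a block 1 of the 7 was lower, Tab1 (-0.39, adjusted p = 0.0481; named after its value was seen). Of the phosphatases that inhibitory motifs recruit, Ptpn6 (SHP-1) rose by 0.72 ± 0.16 (adjusted p = 0.00911), which was lost without pool 3 (0.102) and with the covariate (0.0886), while the other 2 did not pass, of which Inpp5d, at 0.50, was called with the pool as a block (adjusted p = 0.0136; named after its value was seen).

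Of 15 cytokine and other target genes of these receptors 2 rose, 1 fell and 12 did not pass, while 14.5% of all genes rose and 18.1% fell. The part of the receptors in the levels of these genes was not tested. Il1b, the interleukin-1 beta gene, fell by 1.68 ± 0.40 (SE, log2; limma adjusted p = 0.0127), lost without presort replicate 2 (0.0531), without pool 3 (0.132) and under the RNA quality covariate (-1.01, adjusted p = 0.144). The early response factors Egr2 and Egr3 rose by 3.22 ± 0.43 and 3.32 ± 0.31. Cxcl2, a neutrophil attracting chemokine and the brightest of the list, had 10.71, 11.23 and 10.61 in sorted replicates 1 to 3, against 9.48, 9.80 and 5.19 in presort replicates 1 to 3. Presort replicate 3 was far below the other presort samples. Cxcl2 stood at 2.69 ± 1.08 (SE) and did not pass (limma adjusted p = 0.101), but with the pool as a block it was called (adjusted p = 0.0352). Without presort replicate 3 it was called at the smaller difference of 1.21 (adjusted p = 0.00790), and without pool 3 at 1.33 (adjusted p = 0.0145). Nlrp3 was called with the pool as a block at -0.42 (adjusted p = 0.0362; named after its value was seen).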

How the data were processed

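RNA was measured on 6 Affymetrix arrays, 3 sorted and 3 presort. The authors made the deposited intensity values with RMA, per the submitters' processing notes, of which the version is not given in the sources used here. Deposited values are linear, and log2 was taken here. Of 45101 probe sets 34945 carry 1 gene symbol in the platform annotation, 932 several and 9160 none. A gene was read by its single-symbol probe set with the highest mean, which gave 18193 genes. Differences of sorted minus presort levels were tested by limma (version 3.58.1, R version 4.3.3; moderated, two-sided, Benjamini-Hochberg over all genes, threshold 0.05), and the code was tested on simulated data. Same-numbered samples come from 1 pool, per the labels and the design text. Their deviations from the group means correlate at 0.39, 0.20 and -0.03, and a fit with the pool as a block was an alternative. Sorted and presort samples of different pools correlate at -0.35 to 0.25, a range that holds the values of pools 2 and 3.

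The members and lists were chosen with earlier results of these data known. Named genes are all members, all measured adaptors, Nkrp1 receptors and B cell lectins, up to 4 called genes with the largest difference and the brightest gene of each other list, and the 2 brightest markers of each cell type described. The pools are the only replicates, and 3 arrays a group limit the precision. The renin gene is not reported here. Figures were drawn with matplotlib 3.10.9.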

Additional observations from a re-analysis of the deposited data

How the results depend on the processing

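Under 19 alternatives (pool as a block, each array or pool left out, other filters, scalings, probe set rules and limma settings, and a beta-actin 3′ to 5′ covariate) 7 of the 9 members kept their call and direction, except that Clec4d has no value without _x_at and _s_at probe sets. Its highest adjusted p was 0.0497, without pool 3. Clec4n stood at -0.59 without _x_at and _s_at probe sets. Clec2d ran from 0.17 to 0.89 with an array or pool left out, was called without sorted replicate 1 (0.88) and stood at 1.13 with the covariate. Clec2i ran from -0.15 to 0.35 with an array or pool left out; it was below 0 without sorted replicate 3 (-0.15), presort replicate 2 (-0.08), pool 2 (-0.08) and pool 3 (-0.04). The count of members called higher was 0 to 1 with an array or pool left out and 1 with the covariate. Higher genes among the other lectins numbered 3 to 5 with an array or pool left out (3 without pool 3), 8 with median centring and 3 with the covariate. Higher signalling genes and targets numbered 4 with the covariate. Over all genes, 2629 were higher and 3296 lower; higher genes numbered 1544 to 2608 with an array or pool left out, with 1544 without pool 3. Median centring moved the median of all genes by 0.23 (log2), from near 0, and gave 5162 higher and 2576 lower. With the replicate block 2860 genes were higher and 3548 lower, 7 members were lower and 0 higher, and no member's call changed; the calls it changed among the named lists stand in the report. Dim signal limits what the folds show. Clec4n, Clec5a and Cd209a averaged below the median of all probe sets in sorted samples, and Clec2i lay little above it in both groups. Klrb1a (4.04 in sorted and 4.76 in presort samples) and Klrb1b (4.04 and 4.16) were near the floor in both.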
